A study of Mus musculus with 8 samples.

Results

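The 9 genes described here encode enzymes of the tricarboxylic acid cycle: *Cs*, *Idh3a*, *Idh3b*, *Ogdh*, *Dlst*, *Suclg1*, *Sucla2*, *Fh1* and *Mdh2*. They were chosen by symbol from the 16994 genes of the table, and each of the 9 was found once and passed the filter on low counts. RNA was sequenced from hearts of male wild-type (WT) mice and of male mice with whole-body knockout of *Tigar* (TKO), which encodes a regulator of glycolysis. In the mice of both genotypes the left anterior descending coronary artery was tied permanently at 16 weeks of age to induce myocardial infarction. Each genotype gave 1 library of the left ventricle and 1 each of the infarct, border and remote zones, for a total of 8. RNA of 3 mice was pooled for each infarct zone library. The floxed *Tigar* line of the study came from C57BL/6N mice. The time from ligation to tissue collection, the number of mice behind the other libraries, whether the left ventricle came from operated hearts, whether the zones came from the same hearts, and the strain of the WT and TKO mice sequenced are not given in the sources used here. With 1 library per genotype and region, no ratio between 2 libraries has a replicate check, and the intervals beside them cover counting error only.

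The tricarboxylic acid cycle runs in the mitochondrial matrix. It oxidizes the acetyl groups that come from fatty acids, ketone bodies, glucose and amino acids, and passes the electrons to the respiratory chain. Heart muscle, which makes most of its ATP by oxidative phosphorylation, is packed with mitochondria and expresses the genes of the cycle at high levels. In RNA of whole tissue, fewer cells of a type and less RNA per cell cannot be told apart.

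*Tigar* had estimated counts of 1965, 1066, 2215 and 1997 in WT libraries of left ventricle, infarct, border and remote zone. The matching TKO libraries had 51, 87, 79 and 87 counts, so each library fitted its genotype label. Total counts lay between 27429240 and 33799249. The 12 structural genes of cardiomyocytes examined (such as *Myh6* and *Tnnt2*) had counts in every library, and their summed level was lowest in the WT infarct zone, at 0.233 of the WT left ventricle, followed by the TKO infarct zone at 0.475. Genes used here as atrial markers (*Myl7*, *Sln* and *Myl4*) had 16180 summed counts in the WT and 6091 in the TKO remote zone. Whether these counts came from atrial tissue, which the labels do not name, was not tested. The same genes had 2446 in the WT and 231 in the TKO infarct zone, where the median of their TKO over WT ratios was 0.076. In left ventricle and border zone they had between 428 and 1564.

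By their place in the cycle, the members begin with *Cs* (citrate synthase), which joins acetyl-CoA to oxaloacetate and lies on chromosome 10 of GRCm38 from 128337734 to 128362479. *Idh3a* (chromosome 9, 54586334 to 54604661) and *Idh3b* (chromosome 2, 130279309 to 130284547) encode the catalytic alpha and the beta subunit of NAD-dependent isocitrate dehydrogenase. *Ogdh* (chromosome 11, 6291633 to 6356642) and *Dlst* (chromosome 12, 85110833 to 85134845) encode the E1 and E2 components of the 2-oxoglutarate dehydrogenase complex, which makes succinyl-CoA. *Suclg1* (chromosome 6, 73248382 to 73276911) encodes the alpha subunit shared by both succinyl-CoA synthetases, and *Sucla2* (chromosome 14, 73525319 to 73596142) the beta subunit of the ADP-forming one. *Fh1* (fumarate hydratase, chromosome 1, 175600374 to 175625635) makes malate from fumarate. *Mdh2* (mitochondrial malate dehydrogenase, chromosome 5, 135778480 to 135790398) makes oxaloacetate again.

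Because most members moved together over the libraries, the promoters of 3 of them are shown, as given by RefSeq for GRCm38.p6 from 250 bases before to 50 bases after the start. Of the 9 members, 8 had a promoter there, *Idh3a* being the exception. Where a gene had several starts, the first listed was used. Capitals mark the letters GGGCGG, the core of sites bound by SP factors, and CCAAT, the box bound by NF-Y, on either strand. The promoters of *Cs* and *Fh1* hold both, and that of *Suclg1* holds neither.
Cs (chr10:128337477-128337776, forward strand): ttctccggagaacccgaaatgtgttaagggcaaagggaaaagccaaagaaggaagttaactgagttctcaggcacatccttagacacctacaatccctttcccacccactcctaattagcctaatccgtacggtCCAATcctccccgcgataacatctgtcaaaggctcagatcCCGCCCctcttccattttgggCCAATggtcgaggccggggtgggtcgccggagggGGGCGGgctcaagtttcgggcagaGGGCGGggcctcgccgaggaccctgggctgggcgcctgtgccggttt
Fh1 (chr1:175625586-175625885, reverse strand): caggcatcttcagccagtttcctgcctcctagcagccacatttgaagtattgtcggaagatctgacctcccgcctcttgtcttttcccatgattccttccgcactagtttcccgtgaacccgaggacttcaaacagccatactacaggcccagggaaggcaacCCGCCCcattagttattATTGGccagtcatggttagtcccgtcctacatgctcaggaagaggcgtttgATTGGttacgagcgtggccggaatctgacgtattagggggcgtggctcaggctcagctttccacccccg
Suclg1 (chr6:73248255-73248554, forward strand): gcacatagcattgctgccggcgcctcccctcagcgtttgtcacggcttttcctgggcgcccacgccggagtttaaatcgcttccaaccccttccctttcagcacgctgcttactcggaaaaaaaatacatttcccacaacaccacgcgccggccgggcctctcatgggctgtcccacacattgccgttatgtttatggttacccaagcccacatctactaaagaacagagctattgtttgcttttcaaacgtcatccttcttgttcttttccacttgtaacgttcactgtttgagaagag
In *Cs*, CCAAT begins 116 and 55 bases before the start, and GGGCGG begins 76 and 21 bases before it and at base 3 after it. In *Fh1*, CCAAT begins 70 and 19 bases before the start and GGGCGG 87 bases before it. Of the 8 member promoters, 6 (*Cs*, *Ogdh*, *Dlst*, *Sucla2*, *Fh1* and *Mdh2*) held GGGCGG, as did 35.9% of all 27025 promoters, and 4 (*Cs*, *Idh3b*, *Ogdh* and *Fh1*) held CCAAT, as did 37.9% of all. CCGGAAG, read by ETS factors, was in *Idh3b* and *Dlst* and in 9.12% of all promoters. At these first listed starts none of the 8 held AAGGTCA, the short element read by the estrogen-related receptors (4.66% of all), the longer TCAAGGTCA that contains it (0.407%), or GCGCATGC, the core read by NRF1 (2.80%). *Ogdh* has 5 further listed starts, of which 1 held AAGGTCA, beginning 5 bases before the start, and 2 held GCGCATGC, beginning 15 and 36 bases before it. These letters were searched on both strands and are a description of the windows.

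Per kilobase of transcript, the median level over the 8 libraries was highest for *Mdh2*, at 685 CPM per kb, CPM being counts scaled to a common library size by the TMM method. *Idh3b* followed at 473, *Ogdh* at 357, *Cs* at 333 and *Sucla2* at 289, and below them came *Suclg1* at 200.4, *Dlst* at 176 and *Fh1* at 163. *Idh3a* was far lower, at 13.8 CPM per kb, and its highest library (26.97) lay below the lowest of *Fh1* (45.8). Which *Idh3a* transcripts the mm10 reference used for quantification held is not given in the sources used here, and its part in this low level was not tested. The 8 members other than *Idh3a* each spanned between 2.09 and 2.27 log2 units from their lowest to their highest library, so neighbours among these 8 differed by less than the spread of either over the libraries. The lowest of the 8 libraries was the WT infarct zone for each of the 8, and the TKO infarct zone came next.

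**Figure D1:**
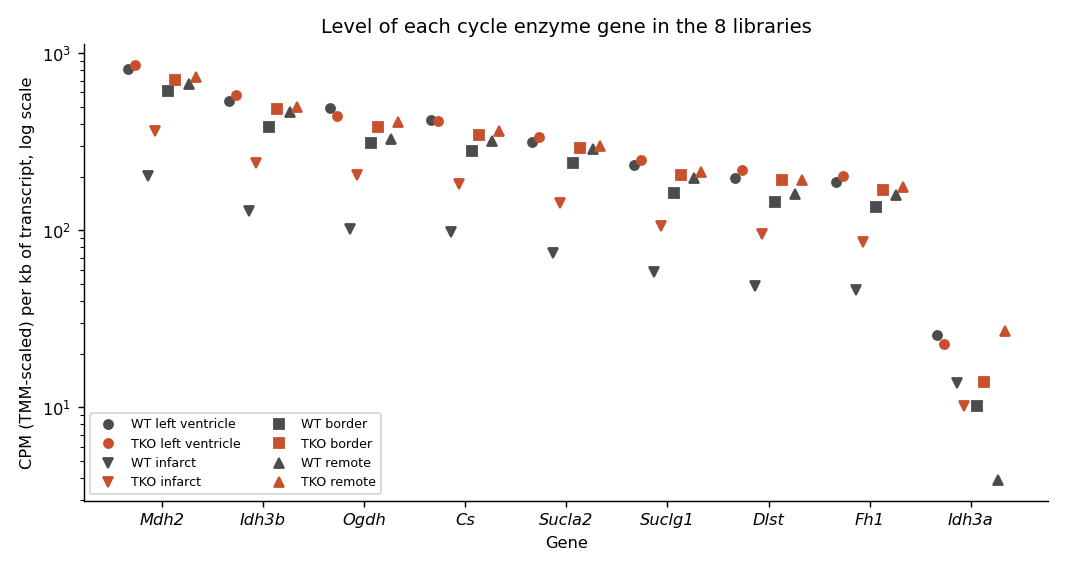
Level of each member in the 8 libraries, in TMM-scaled CPM per kb of transcript on a log axis, with genes on the horizontal axis in the order of their medians, grey for WT, orange for TKO, and symbols for regions. For 8 genes the infarct zone triangles sit lowest, with WT below TKO, whereas *Idh3a* lies below the others and its lowest point is the WT remote zone at 3.89 CPM per kb.

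Together the members took 0.648% of all counts in the WT left ventricle and 0.655% in the TKO left ventricle. Infarct tissue had shares of 0.270% (WT) and 0.415% (TKO), border tissue 0.494% and 0.568%, and remote tissue 0.526% and 0.594%. Exact 95% binomial intervals around these shares reached at most from 0.652% to 0.658%, around the TKO left ventricle. WT thus lay below TKO in the 3 zones, while in the left ventricle the genotypes differed by little. Mitochondrial DNA-encoded genes took from 20.7% (WT infarct zone) to 39.3% (WT remote zone) of all counts. With these left out, the member shares were 1.039% (WT) and 1.033% (TKO) in left ventricle. They were then 0.3405% and 0.575% in infarct, 0.797% and 0.928% in border, and 0.866% and 0.967% in remote tissue.

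The first comparison asks how TKO differed from WT in each region. In the infarct zone, 8 of the 9 members were higher in TKO, by 1.81-fold to 2.004-fold, and *Idh3a* was lower, at 0.745-fold. The median of the 9 TKO over WT ratios was 1.88 there, against 1.23 at the border, 1.11 in remote tissue and 1.06 in left ventricle. The median over all 12999 genes tested was between 0.993 and 1.01 in the 4 regions. All 9 members were higher in TKO in the border and in the remote zone, and 6 of 9 in the left ventricle. At least 2-fold differences were counted after a prior count of 2. They were seen in 1 member in the infarct zone (*Ogdh*; 3.87% of all genes tested differed by that much in either direction), in 1 in the remote zone (*Idh3a*; 3.53%), and in none in the border zone (4.48%) or the left ventricle (5.51%).

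For the entry of carbon, *Cs* had 33554 counts in WT and 31456 in TKO left ventricle, 12050 and 19104 in infarct tissue, 25176 and 29892 at the border, and 28609 and 32212 in remote tissue. TKO over WT, *Cs* stood at 1.88 in infarct tissue (95% interval 1.83 to 1.92), 1.23 at the border (1.21 to 1.25) and 1.14 in remote tissue (1.12 to 1.16). The left ventricle value of 0.992 (0.977 to 1.01) shows no difference detectable with these counts. The WT infarct zone was the lowest library and the WT left ventricle the highest.

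Of the isocitrate dehydrogenase subunits, *Idh3b* had 23653 counts in WT and 24223 in TKO left ventricle, 8730 and 13875 in infarct tissue, 19086 and 23098 at the border, and 22865 and 24039 in remote tissue. Its TKO over WT ratio was 1.88 in infarct tissue (1.83 to 1.93), 1.26 at the border, 1.06 in remote tissue and 1.08 in left ventricle, so the border and infarct zones carried the larger differences. *Idh3a* had 1815 counts in WT and 1521 in TKO left ventricle, 1491 and 939 in infarct tissue, 807 and 1065 at the border, and 305 and 2095 in remote tissue. The highest and the lowest *Idh3a* library were thus both from the remote zone. Its ratio was 6.94 there (6.15 to 7.85), 1.37 at the border (1.25 to 1.504), 0.887 in left ventricle (0.828 to 0.9498) and 0.745 in infarct tissue (0.686 to 0.809).

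In the 2-oxoglutarate dehydrogenase complex, *Ogdh*, the most abundant member by counts, had 55690 counts in WT and 47390 in TKO left ventricle, 17852 and 30230 in infarct tissue, 39543 and 46937 at the border, and 41410 and 50518 in remote tissue. Its ratio was 2.004 in infarct tissue (1.97 to 2.04), 1.23 in both border (1.22 to 1.25) and remote tissue (1.22 to 1.25), and 0.900 in left ventricle (0.890 to 0.912). It had the highest of the 9 infarct zone ratios, and TKO lay below WT for it in the left ventricle. *Dlst* had 14885 and 15590 counts in left ventricle, 5642 and 9434 in infarct tissue, 12316 and 15753 at the border, and 13469 and 16038 in remote tissue, WT first. Its ratio was 1.98 in infarct tissue (1.91 to 2.05), 1.33 at the border, 1.20 in remote tissue and 1.11 in left ventricle, above 1 in each region.

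The succinyl-CoA synthetase subunits ran close to each other. *Suclg1* had 9753 and 9760 counts in WT and TKO left ventricle, 3743 and 5759 in infarct tissue, 7647 and 9211 at the border, and 9078 and 9722 in remote tissue. *Sucla2* had 19167 and 19518 counts in left ventricle, 7003 and 11383 in infarct tissue, 16543 and 19197 at the border, and 19521 and 20130 in remote tissue. Infarct zone ratios of TKO to WT were 1.82 for *Suclg1* (1.75 to 1.90) and 1.92 for *Sucla2* (1.87 to 1.98). In the other regions both ratios lay between 1.04 and 1.25, with the border zone the highest.

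In the last steps, *Fh1* had 13542 and 13857 counts in WT and TKO left ventricle, 5112 and 8119 in infarct tissue, 11066 and 13135 at the border, and 12613 and 13870 in remote tissue. *Mdh2* had 32556 and 32456 counts in left ventricle, 12437 and 18995 in infarct tissue, 27271 and 30345 at the border, and 29556 and 32034 in remote tissue. Infarct tissue gave a ratio of 1.88 for *Fh1* (1.81 to 1.95) and 1.81 for *Mdh2* (1.77 to 1.85), the lowest of the 8 that were higher in TKO. Both ratios were between 1.06 and 1.23 in the other 3 regions.

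**Figure D2:**
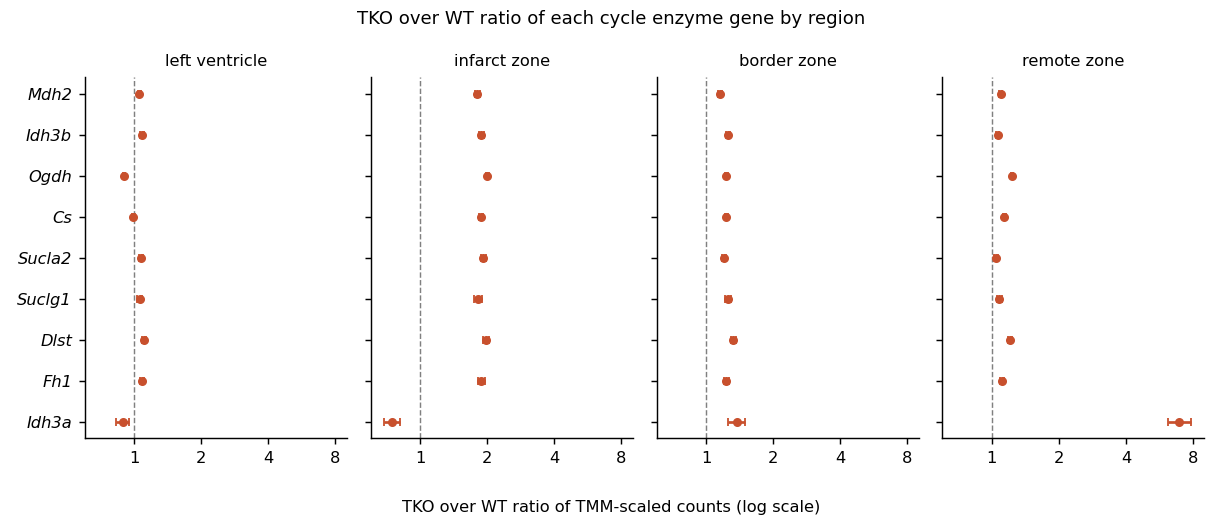
TKO over WT ratio of TMM-scaled counts on a log axis for each member, 1 panel per region, with exact 95% intervals that cover counting error only and a dashed line at 1. In the infarct zone 8 members line up between 1.81 and 2.004 with *Idh3a* at 0.745, and in the remote zone *Idh3a* stands apart at 6.94.

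Across regions, TKO was compared with WT with edgeR's quasi-likelihood test, with region as a block. The 9 members had log2 differences between 0.32 and 0.58, all toward TKO, with standard errors between 0.15 and 0.52, and none was called at an adjusted p of 0.05. The edgeR adjusted p values lay between 0.26 and 0.595, and *Dlst* alone had an unadjusted p under 0.05 (log2 difference 0.45 ± 0.16 SE, unadjusted p = 0.0263, edgeR adjusted p = 0.26). With the DESeq2 Wald test none was called either, and 8 had an unadjusted p under 0.05, as did 2025 of all 12999 genes tested. Of all genes tested, 0.0769% were called higher in TKO by edgeR (10 of 12999), and 2109 had an unadjusted p under 0.05. Regions stand in for replicates in this test, and the spread between mice does not enter it. With total counts in place of TMM, the calls over all genes went from 10 higher and 8 lower to 12 higher and 44 lower, and no member was called.

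Both tools were also used to test whether the genotype difference of the infarct zone departed from the mean of the other 3, which rests on 1 library per genotype. edgeR called none of the 9 members and 0.00769% of all genes (1 of 12999, with 1018 at an unadjusted p under 0.05). The departure of the 8 members other than *Idh3a* lay between 0.69 and 0.85 log2 units, with unadjusted edgeR p between 0.00397 and 0.0136 and adjusted p between 0.41 and 0.431. DESeq2 called those 8 higher (adjusted p between 0.00412 and 0.0188), where 13.3% of the 2162 genes with an adjusted p were called higher (288 genes). For *Idh3a* the departure was -1.38 ± 1.10 (SE) on the log2 scale, with an edgeR adjusted p of 0.936 and no adjusted p from DESeq2. The call thus depended on the tool.

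The next comparison asks how the zones differed from the left ventricle of the same genotype. In the infarct zone all 9 members were lower in both genotypes, with a median ratio of 0.245 in WT and 0.427 in TKO, where the median over all genes was 1.01 in each. In WT the ratios of 8 members lay between 0.208 (*Ogdh*) and 0.249 (*Suclg1*), and *Idh3a* was at 0.532 (0.497 to 0.570). In TKO the 9 ratios lay between 0.415 (*Idh3b*) and 0.462 (*Ogdh*), with *Idh3a* among them at 0.447. At least 2-fold lower were 8 of 9 members in WT, beside 14.8% of all genes tested, and 9 of 9 in TKO, beside 7.62%. *Ogdh* thus had the lowest ratio of the 9 in WT and the highest in TKO. The WT ratio rests on the WT left ventricle library as denominator. *Ogdh* over *Dlst* was highest in that library, at 3.74, against 2.98 in the lowest library.

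In the border zone the median ratio to the left ventricle was 0.718 in WT and 0.830 in TKO. *Ogdh* (0.632) and *Cs* (0.667) were the lowest in WT after *Idh3a* (0.395), and *Sucla2* was the highest at 0.768. *Idh3a* alone was at least 2-fold lower in WT (1.83% of all genes) and no member in TKO (1.68%), where *Idh3a* was at 0.611 and the other 8 between 0.816 and 0.882. In the remote zone the median ratio was 0.818 in WT and 0.881 in TKO. *Idh3a* was at 0.151 in WT (0.134 to 0.171), again the only member at least 2-fold lower (2.08% of all genes), and at 1.18 in TKO (1.11 to 1.27), where no member was 2-fold lower (1.52%). The other 8 lay between 0.670 (*Ogdh*) and 0.917 (*Sucla2*) in WT and between 0.849 (*Mdh2*) and 0.917 (*Ogdh*) in TKO.

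**Figure D3:**
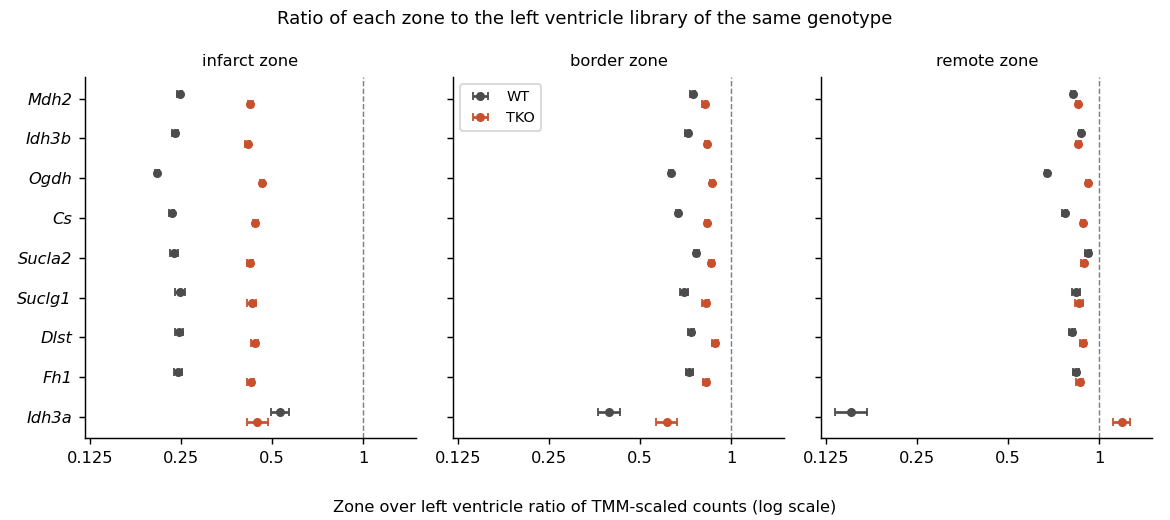
Ratio of each zone to the left ventricle library of the same genotype, on a log axis, for each member, WT in grey and TKO in orange, with exact 95% intervals that cover counting error only. In the infarct zone the WT points of 8 members lie between 0.208 and 0.249 and the TKO points between 0.415 and 0.462, and the genotypes lie closer together in the border and remote zones.

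Over both genotypes, with genotype as a block, edgeR's quasi-likelihood test called 8 of 9 members lower in the infarct zone than in the left ventricle, beside 28.6% of all genes tested. Their log2 differences lay between -1.68 (*Ogdh*) and -1.59 (*Dlst*), with standard errors between 0.22 and 0.29 and edgeR adjusted p values between 0.00178 and 0.00372. *Idh3a* was the ninth, at -0.999 ± 0.69 (SE, edgeR adjusted p = 0.253). Genotypes stand in for replicates in this test, and the spread between mice does not enter it. The fit assumes the same zone difference in both genotypes, where the median ratios above were 0.245 in WT and 0.427 in TKO. The calls over all genes were 3670 higher and 3715 lower, and with total counts in place of TMM they were 7869 higher and 1084 lower, with the same number of members called. That scaling moved every gene of the infarct zone up by 0.83 log2 units in WT and 0.54 in TKO. The median member stood then at 0.434 in WT and 0.621 in TKO, beside a median over all genes of 1.80 and 1.47. In the border zone edgeR called none of the 9 lower (log2 differences from -1.07 to -0.31; 0.0462% of all genes) and in the remote zone none (-0.88 to -0.15; 0% of all genes, with 1378 of them at an unadjusted p under 0.05). DESeq2 called none of the members in either zone, and no member had an unadjusted p under 0.05 with either tool.

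Counts of the members moved with those of cardiomyocyte structural genes. Per 100 counts of the 12 structural genes, the members had 15.5 counts in WT and 15.4 in TKO left ventricle, 15.7 and 14.4 in infarct tissue, 14.1 and 14.6 at the border, and 14.8 and 15.2 in remote tissue. The WT infarct zone was thus the highest of the 8 and the WT border zone the lowest. All 12 structural genes stood higher with TKO in the infarct zone, by 1.64-fold to 3.41-fold with a median of 1.95. All 7 fibroblast genes (such as *Col1a1* and *Postn*) were lower there, with a median of 0.818, as were all 6 macrophage and leukocyte genes (such as *Cd68*), with a median of 0.740.

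With the libraries scaled by the structural genes in place of TMM, the members had a median ratio of TKO to WT that was 0.921 for infarct, 1.04 for border and 0.995 for remote tissue and 1.03 for left ventricle. *Ogdh* stood then at 0.983 in the infarct zone and *Mdh2* at 0.886, and all 9 members were below 1. The median ratio of the infarct zone to the left ventricle became 1.05 in WT and 0.922 in TKO. This scaling takes the summed counts of the structural genes, which did not move equally. In infarct tissue the genotype difference of *Myh6* departed from that of the other regions by 1.66 log2 units. The median departure of the 12 structural genes was 0.788. By TMM, *Ogdh* at 2.004 and *Dlst* at 1.98 lay above the median ratio of the structural genes given above, and within their range. The other members lay below that median, from *Idh3a* at 0.745 to *Sucla2* at 1.92. Scaling without *Myh6* was not tested. Of the summed marker levels relative to the WT left ventricle, that of the fibroblast genes ran from 1 to 9.50 over the libraries and that of the macrophage and leukocyte genes from 0.890 to 4.73, both highest in the WT infarct zone. No marker of these 3 lists was at 0 in any library. The part of cell composition in the differences was not tested further.

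**Figure D4:**
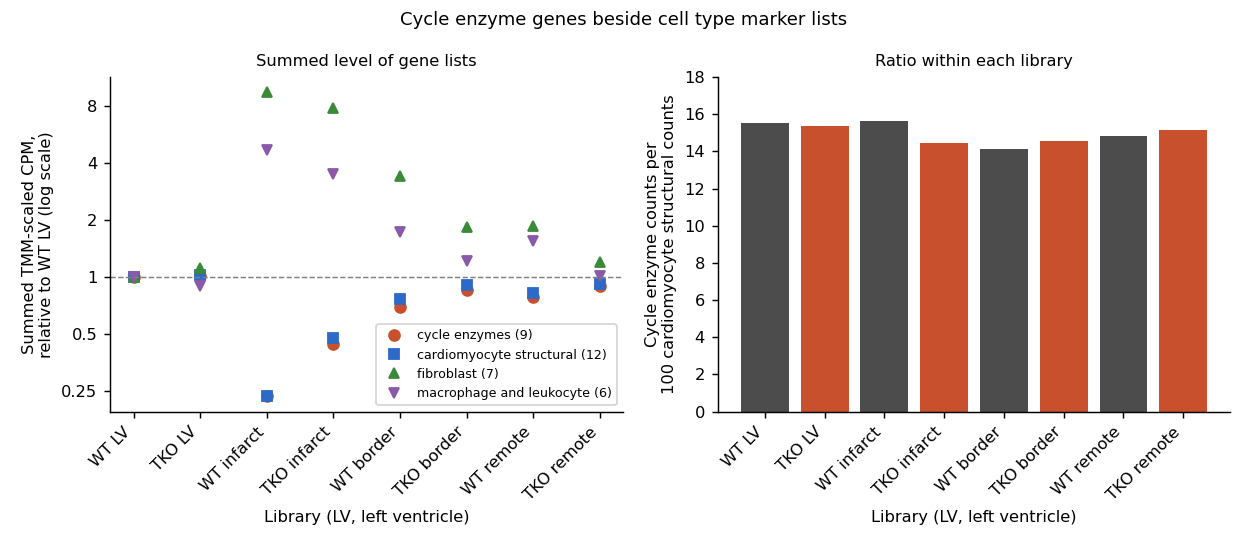
Left, summed TMM-scaled CPM of the 9 members and of 3 lists of marker genes in each library, relative to the WT left ventricle on a log axis. Right, counts of the members per 100 counts of cardiomyocyte structural genes as bars from 0, WT in grey and TKO in orange. The members follow the structural genes down to 0.234 in the WT infarct zone, where the fibroblast genes reach 9.50, and the bars stay between 14.1 and 15.7.

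Ratios of 2 genes within a library need no scaling. *Fh1* over *Mdh2* ran from 0.406 to 0.433 in the 8 libraries, *Cs* over *Mdh2* from 0.923 to 1.03, and *Sucla2* over *Suclg1* from 1.87 to 2.16. *Ogdh* over *Dlst* was 3.74 in the WT left ventricle and between 2.98 and 3.21 in the other 7 libraries. *Suclg2*, which encodes the beta subunit of the GDP-forming synthetase, had between 0.188 and 0.213 counts per count of *Sucla2*. Each of these pairs thus kept its proportion within 1.26-fold. *Ogdh* over *Dld*, which encodes the E3 component of the complex, ran wider, from 2.74 to 3.98 (1.45-fold), with the WT left ventricle highest.

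*Idh3a* did not follow its partners. *Idh3a* over *Idh3b* was 0.0767 in WT and 0.0628 in TKO left ventricle, 0.171 and 0.0677 in infarct tissue, 0.0423 and 0.0461 at the border, and 0.0133 and 0.0871 in remote tissue, a range of 12.8-fold. *Idh3g* over *Idh3b*, another pair of subunits of this enzyme and one not planned in advance, ran only from 0.578 to 0.722. *Mdh1*, the cytosolic malate dehydrogenase gene, also varied against its mitochondrial partner, from 0.0105 of *Mdh2* in the WT infarct zone to 0.0385 in the TKO remote zone. None of the 5097 stretches of 31 bases in annotated *Idh3a* transcripts was found in another annotated gene. The annotation lists 5 transcripts for *Idh3a*, of which 2 are protein coding. The table holds gene totals only, so the cause of the spread of *Idh3a* and *Mdh1*, the quantification reference included, was not tested. In *Cs*, 249 of 5749 such stretches (4.33%) are shared with *Csl*.

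**Figure D5:**
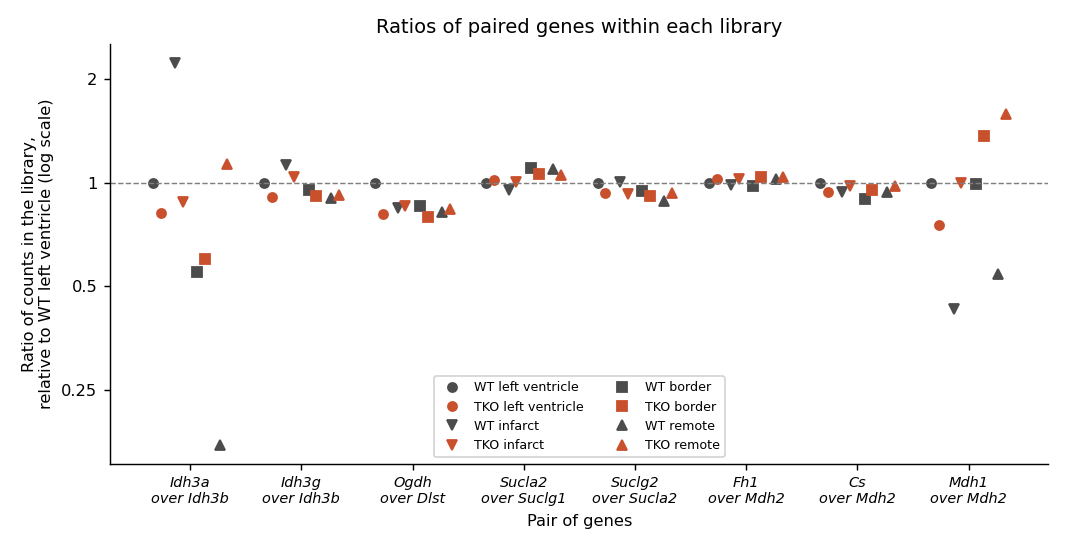
Ratio of the counts of paired genes within each library, relative to the WT left ventricle, on a log axis, with grey for WT, orange for TKO and symbols for regions. *Idh3a* over *Idh3b* runs from 0.174 to 2.23 and *Mdh1* over *Mdh2* from 0.430 to 1.58, while the other pairs shown lie between 0.796 and 1.13.

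Over the 8 libraries, the log2 profile of each member was compared with the mean profile of the others, *Idh3a* left out of that mean. Pearson's r was between 0.992 (*Ogdh*) and 0.9997 (*Fh1*) for 8 members, with root mean square differences between 0.017 and 0.087 log2 units, and 0.242 for *Idh3a*, with 0.962. These values describe 8 libraries that share their region and genotype labels, and the infarct zone libraries set most of the range. Of the 12990 other genes, the 10 nearest to the mean profile of the 9 members were *Gatb*, *Cdnf*, *Rhot2*, *Pcca*, *Msrb2*, *Dnaja3*, *Ndrg2*, *Dbt*, *Dhrs4* and *Mfn2*, at 0.048 to 0.082 log2 units. Nearest to the mean of the 8 without *Idh3a*, a set taken after its values were seen, were *Atp5a1*, *Phyh*, *Etfa*, *Atp5b*, *Echs1*, *Suclg2*, *Ndufs1*, *Got2*, *Uqcrc2* and *Hibadh*, at 0.020 to 0.041. *Atp5a1* and *Atp5b* encode subunits of ATP synthase, *Ndufs1* and *Uqcrc2* subunits of respiratory chain complexes, and *Etfa* and *Echs1* proteins of fatty acid oxidation.

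Of 14 other genes for subunits of the cycle and its extramitochondrial or paralogous forms, 13 passed the filter on low counts. Against the left ventricle, 11 of the 13 were called lower in the infarct zone by edgeR, beside 28.6% of all genes tested, and none higher, beside 28.2%. Their median log2 difference was -1.52. *Idh2*, the NADP-dependent mitochondrial isocitrate dehydrogenase, was at -1.76 ± 0.26 (SE, edgeR adjusted p = 0.00231). Of the succinate dehydrogenase subunits, *Sdhb* was at -1.68 and *Sdhd* at -1.26. The cytosolic aconitase gene *Aco1* (-0.20 ± 0.09, adjusted p = 0.111) and *Dhtkd1* were not called. Between genotypes none of the 13 was called across regions. In infarct tissue the median of their TKO over WT ratios was 1.77, with *Sdha* at 1.90 and *Mdh1* at 4.21 (462 against 130 counts).

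Of 14 genes for entry and exit of cycle carbon, 9 were called lower in the infarct zone than in the left ventricle, 1 higher, and 4 were not called. The same 28.6% (lower) and 28.2% (higher) of all genes tested stand beside the counts of this list and of the carrier and lipoate lists. The aspartate aminotransferase genes *Got2* (-1.72 ± 0.25, edgeR adjusted p = 0.00208) and *Got1* (-1.67 ± 0.28, adjusted p = 0.00342) fell by about as much as the members. *Acly*, ATP citrate lyase, which splits exported citrate in the cytosol, rose (0.35 ± 0.11, adjusted p = 0.0346). Of 7 carrier genes, 5 were called lower, among them *Mpc2* of the mitochondrial pyruvate carrier (-1.58 ± 0.23, adjusted p = 0.00207), and *Slc25a1*, the citrate carrier, rose (0.78 ± 0.14, adjusted p = 0.00467). With total counts in place of TMM every log2 difference above would be larger by a common amount, so these directions are relative to the median gene. Of 7 genes for lipoate attachment and for assembly of succinate dehydrogenase, 6 were called lower, with a median log2 difference of -1.08. None of the genes of these 3 lists was called between genotypes by edgeR. Their median TKO over WT ratios in the infarct zone were 1.53 for entry and exit, 1.77 for carriers and 1.41 for lipoate and assembly.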

How the data were processed

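The authors used Trim Galore 0.6.5 to trim reads, quantified transcripts with kallisto 0.46 against an mm10 transcriptome and summed them to genes with tximport, and the submitters' processing notes also name edgeR 3.34.1. Values in the deposited table are estimated counts, as whole numbers without normalization, for 16994 genes in 8 libraries. The 153 genes without a symbol stayed in totals and tests under their identifiers. Groups came from the library titles.

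Library sizes were scaled by TMM in edgeR 4.0.16 (R 4.3.3) over 12999 genes whose mean CPM reached 1. A ratio between 2 libraries has an exact (Clopper-Pearson) 95% interval from the counts and no test. A 2-fold difference was called with a prior count of 2 added. Across libraries, edgeR's quasi-likelihood test was fitted to all 12999 genes, with Benjamini-Hochberg adjustment over all of them and a threshold of 0.05. This test gives no standard error. The SE printed with it is the size of the log2 difference divided by the square root of the F statistic. The fit with region and genotype leaves 3 residual degrees of freedom and the fit with the infarct zone term 2, with regions or genotypes standing in for replicates. The scripts were tested on simulated data. Levels per kb use the longest basic protein coding transcript of GENCODE vM21 (GRCm38).

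The text names the 9 members, genes of 4 fixed pathway lists, the 10 genes nearest in profile, marker genes and Tigar. The members and lists were chosen with earlier results of these data known, and promoter windows are from RefSeq. Endothelial, smooth muscle, adipocyte and red cell markers were also counted. In the infarct zone their median TKO over WT ratios were 1.14, 1.04 and 0.667 for the first 3, and the summed level of the red cell genes was 2.27 in WT and 2.39 in TKO relative to the WT left ventricle. Alternatives were total counts, DESeq2 1.42.0 size factors and Wald test, mitochondrial DNA-encoded genes left out, scaling by cardiomyocyte structural genes, a prior count of 2, no filter on low counts, and each region left out. The median without Idh3a was added after the data were seen, and the pair of Idh3g and Idh3b was not planned in advance. Python 3.11.15 with pandas 2.3.3 and matplotlib 3.10.9 produced tables and figures. Protein sequences were not used here. Some genes of the pathway lists are not reported by name here.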

Additional observations from a re-analysis of the deposited data

Results flagged for a closer look

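Results for 2 genes, *Idh3a* and *Ogdh*, stood apart because they moved in opposite directions in 2 groups of libraries. Each group was 1 library, so none of these differences was tested. For *Idh3a*, TKO over WT was 6.94 in remote tissue and 0.745 in infarct tissue, which differ by 9.31-fold. Its ratio of the remote zone to the left ventricle was 1.18 in TKO and 0.151 in WT, a difference of 7.83-fold. For *Ogdh*, TKO over WT was 2.004 in infarct tissue and 0.900 in left ventricle, a difference of 2.23-fold.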

How the results depend on the processing

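The medians of the members kept their direction with DESeq2 size factors, with mitochondrial DNA-encoded genes left out, with a prior count of 2 (TKO over WT only) and without *Idh3a*. With total counts only, the median TKO over WT ratio became 1.53 in the infarct zone and 1.15 in the border zone, and the ratio to the left ventricle became 0.434 (WT) and 0.621 (TKO) for infarct, 0.790 and 0.855 for border, and 0.849 and 0.906 for remote tissue. With scaling by the cardiomyocyte structural genes, the TKO over WT median became 0.921 in the infarct zone and 0.995 in the remote zone, both reversed, and 1.04 in the border zone. The ratio to the left ventricle became 1.05 in the WT infarct zone, reversed, 0.922 in TKO, 0.941 and 0.935 in the border zone (WT and TKO), and 0.998 and 0.986 in the remote zone. That scaling sets the structural genes' total equal in all libraries by its construction, and the cause of the changes was not tested. *Myh6* held 244473 of the 1316449 summed structural counts in the WT left ventricle. It held 45355 of 473042 in the WT and 130620 of 815335 in the TKO infarct zone. In the remote zone it held 160486 of 1197346 in WT and 215284 of 1323788 in TKO. Whether the reversals, or the remote zone value near 1, depend on a single structural gene such as *Myh6* was not tested either. DESeq2 called 8 members for the departure of the infarct zone against 0 with edgeR, and the cause was not tested. Without the remote zone, *Idh3a* changed sign between genotypes, from 0.58 to -0.0489 on the log2 scale. No member was called between genotypes with any region left out. For the 8 members other than *Idh3a*, the median log2 difference between genotypes was 0.352 with all regions. It was 0.158 (0.13 to 0.266) with the infarct zone left out, and between 0.367 and 0.45 with another region left out. Over all genes, DESeq2 called 342 between genotypes against 18 with edgeR, total counts 56, and the fit without the left ventricle 80, without the border zone 5, without the infarct zone 6 and without the remote zone 3. In the border zone DESeq2 called 576 and total counts 200 against 93, and in the remote zone DESeq2 called 162, total counts 18 and no filter 3 against 0. For the departure of the infarct zone DESeq2 called 288 against 1. No paired analysis was possible because the labels carry no replicate numbers that tie libraries to animals. The blocks in the fits above were region or genotype. Counting error was small for the 8 members other than *Idh3a*, but with 1 library per genotype and region the spread between mice is unknown.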

Other observations

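*Pcx*, which encodes pyruvate carboxylase, had counts of 200 (WT left ventricle), 65 (WT infarct zone), and 45, 135 or 180 in each of the other 6 libraries. *Ogdhl*, the paralog of *Ogdh* that did not pass the filter on low counts, had 0 counts in 3 WT libraries, 50 in the library of the WT remote zone, and 57, 33, 23 and 82 in the TKO left ventricle, infarct, border and remote zones. *Pck1*, which encodes cytosolic phosphoenolpyruvate carboxykinase, had 847 counts in the WT left ventricle and between 5 and 92 in the other 7 libraries, and the 3 adipocyte genes had 792 summed counts in the WT left ventricle and between 12 and 241 in the others.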
